A study of Mus musculus with 10 samples.

Results

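A group of 9 genes of iron binding, reduction, transport and storage was followed in mouse pancreatic beta cells exposed to lipopolysaccharide (LPS), the endotoxin of Gram-negative bacteria, to which cells respond by way of Toll-like receptor 4. The genes were Lcn2, Ltf, Steap4, Hamp, Tfrc, Slc11a2, Slc40a1, Fth1 and Ftl1, 9 of the 56748 gene identifiers counted. All 9 passed the filter on low counts, as did 15942 genes in all. They were chosen by their known roles in iron handling and with the counts of LPS against untreated libraries in view, so their levels and fold changes are given as a description, without a test.

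Mammalian cells take up transferrin-bound iron through the transferrin receptor, move it out of the endosome, store the surplus in ferritin and release it through ferroportin. During infection the host lowers the iron that microbes can reach, which is called nutritional immunity: lipocalin-2 captures bacterial siderophores, lactoferrin binds iron outside cells, and hepcidin causes ferroportin to be degraded. Much of iron homeostasis is set after transcription, by iron regulatory proteins that bind hairpins in messenger RNAs called iron-responsive elements. Beta cells are known for a weak defence against oxidants, which free iron can generate.

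The islets came from male mice of the NOD strain, which develops autoimmune diabetes spontaneously, at 6 to 8 weeks of age. Whole islets were cultured untreated (n = 5 libraries, numbered 1 to 5) or with LPS at 50 ng/ml for 48 hours (n = 5, numbered 6 to 10), then dispersed with trypsin and sorted by flow cytometry for beta cells, whose RNA was sequenced. The samples are labelled as independent, but the animals behind each are not named, so that p-values measure the spread between these libraries. Both groups were cultured as whole islets, in which beta cells lie beside other endocrine, vascular and immune cells.

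Library totals, as reads on genes, lay between 18465188 (LPS 9) and 27379892 (LPS 7). The deposited whole-number counts were expressed here as CPM, counts relative to a fixed library total, after scaling by edgeR's trimmed mean of M values (TMM). Insulin transcripts led all libraries, with Ins2 at 70376 ± 6166 CPM in untreated and 61582 ± 8371 CPM in LPS libraries (SD, n = 5 each) and Ins1 at 36482 ± 2465 and 33957 ± 4290 CPM. Glucagon and somatostatin transcripts, which mark alpha and delta cells, were also present: Gcg stood at 8931 ± 3393 and 6558 ± 1834 CPM and Sst at 7068 ± 825 and 6637 ± 1572 CPM. A gene was called when edgeR's quasi-likelihood test gave a Benjamini-Hochberg adjusted p under 0.05, which 3.77% of all genes tested met (2.84% higher and 0.928% lower in LPS). The median log2 fold change of all genes was -0.01.

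Of the 9 genes, 5 stood higher in LPS libraries and 4 were not separated between the groups. Lcn2, Ltf, Steap4 and Hamp were between 3.71 and 24.5 times as high with LPS, and the transporter gene Slc11a2 was 1.50 times as high. For these 5 genes every LPS library lay above every untreated library, a separation found in 5.71% of all genes tested (3.84% with LPS higher and 1.87% with LPS lower), and the same 5 genes were among those called higher. Since the genes were chosen with this contrast in view, these counts describe them and support nothing. Tfrc, Slc40a1, Fth1 and Ftl1 had overlapping groups and were not called. In bulk samples of this kind, a change in the share of cells of one type and a change in RNA per cell cannot be told apart.

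**Figure D1:**
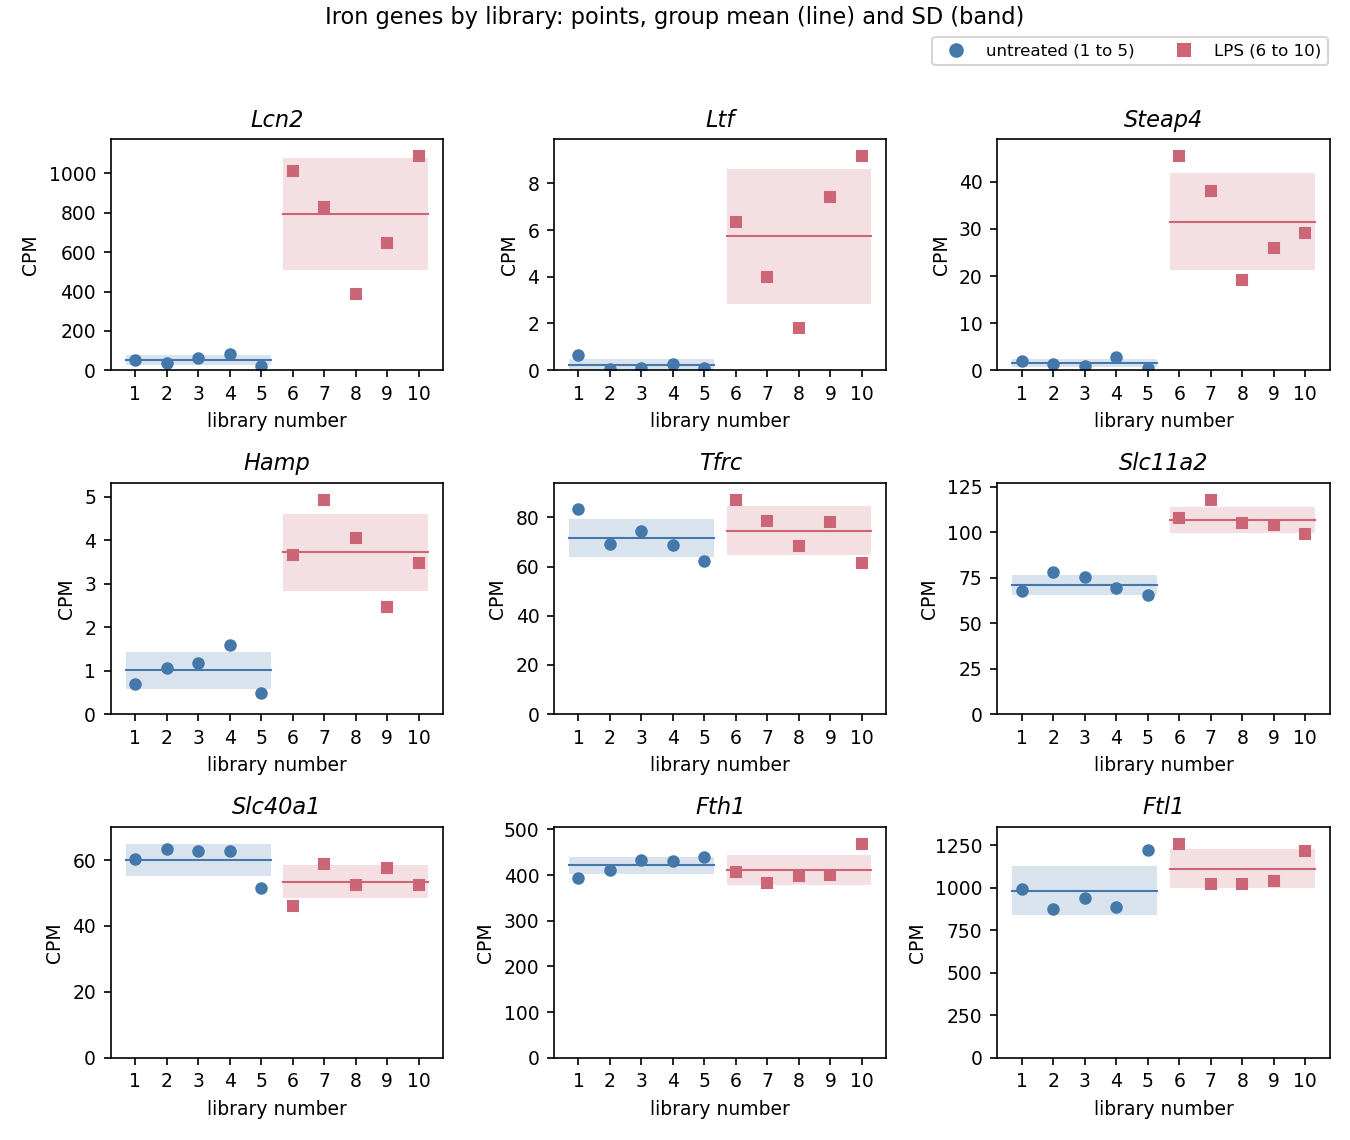
TMM-scaled CPM of each of the 9 genes (vertical axis, from 0, a scale of its own in each panel) in libraries 1 to 10. Circles are untreated and squares LPS libraries, lines are group means and bands 1 SD (n = 5 each); the groups are separated for Lcn2, Ltf, Steap4, Hamp and Slc11a2 and overlap for Tfrc, Slc40a1, Fth1 and Ftl1.

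The genes of secreted proteins that withhold iron were Lcn2 and Ltf. Lcn2 (ENSMUSG00000026822) encodes lipocalin-2, also called neutrophil gelatinase-associated lipocalin, a small secreted protein that binds bacterial siderophores of the enterobactin type. It lies at chr2:32384633-32387797 on the minus strand (GENCODE M21, GRCm38; transcript of 6 exons). In untreated libraries 1 to 5 its level was 53.6, 36.7, 64.3, 81.1 and 19.4 CPM, and in LPS libraries 6 to 10 it was 1011, 832, 387, 648 and 1087 CPM. The lowest LPS library was thus well above the highest untreated one, although the values varied several-fold inside each group. The means were 51.0 ± 24.0 and 793 ± 283 CPM (SD, n = 5 each), a fold of 15.6 and a log2 fold change of 3.96 ± 0.37 (SE). The coefficient of variation was 46.9% in untreated and 35.7% in LPS libraries. Over the other 17 settings of normalization, filter, tool and left-out library the log2 fold change ran from 3.67 to 4.19.

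Ltf (ENSMUSG00000032496, chr9:111019292-111042767, plus strand, 17 exons) encodes lactoferrin, an iron-binding glycoprotein of secretions and of neutrophil granules. Its level in untreated libraries 1 to 5 was 0.661, 0.0405, 0.0845, 0.258 and 0.0821 CPM, from 17, 1, 2, 6 and 2 counts. In LPS libraries 6 to 10 it was 6.35, 3.98, 1.81, 7.41 and 9.16 CPM, from 130, 110, 38, 138 and 221 counts. Ltf therefore passed the low-count filter only through the LPS libraries, and most of the untreated counts came from untreated 1. The means were 0.225 ± 0.258 and 5.74 ± 2.89 CPM (SD, n = 5 each), and the log2 fold change was 4.62 ± 0.58 (SE), which is 24.5-fold. Without untreated 1 the log2 fold change was 5.58, and over the other settings it was never under 4.35. Ltf had the highest fold of the 9 genes and the lowest mean level per transcript length of them in both groups.

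Steap4 (ENSMUSG00000012428, chr5:7960457-7982213, plus strand, 5 exons) encodes a membrane metalloreductase that reduces ferric iron and cupric copper. Untreated libraries 1 to 5 had Steap4 levels of 2.02, 1.26, 0.929, 2.75 and 0.534 CPM, and LPS libraries 6 to 10 had 45.4, 38.0, 19.2, 26.0 and 29.0 CPM. Again the lowest LPS library exceeded the highest untreated library by a wide margin. The means were 1.50 ± 0.889 and 31.5 ± 10.3 CPM (SD, n = 5 each), a 21.0-fold difference and a log2 fold change of 4.39 ± 0.34 (SE). It ranged from 4.18 to 4.72 over the other settings.

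Hamp (ENSMUSG00000050440, chr7:30942368-30944032, minus strand, 3 exons) encodes hepcidin, the peptide hormone that limits iron release through ferroportin and is made mainly by the liver. Its level in untreated libraries 1 to 5 was 0.700, 1.05, 1.18, 1.59 and 0.493 CPM, from 18, 26, 28, 37 and 12 counts. In LPS libraries 6 to 10 it was 3.66, 4.92, 4.04, 2.47 and 3.48 CPM, from 75, 136, 85, 46 and 84 counts. The groups did not overlap, but LPS 9 came nearer to untreated 4 than the other LPS libraries did. The means were 1.00 ± 0.429 and 3.71 ± 0.889 CPM (SD, n = 5 each), and the log2 fold change was 1.89 ± 0.29 (SE), with 1.72 to 2.12 over the other settings. Hamp2, the second mouse hepcidin gene, had no count in any of the 10 libraries. At a floor of 3 counts per group, this leaves room for a level of 0.0247 CPM in the untreated group and 0.0268 CPM in the LPS group, for counting error only.

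The stretches of genome before the principal transcripts of these 4 genes are shown because these genes stood furthest apart between the groups. They are RefSeq promoter sequences of GRCm38.p6, 5′ to 3′ on the strand of the gene. Each was shortened to end before the RefSeq start and the first base of the principal transcript. They lie at chr2:32387798-32387989 (minus) for Lcn2, chr9:111019042-111019291 (plus) for Ltf, chr5:7960222-7960456 (plus) for Steap4 and chr7:30944033-30944279 (minus) for Hamp. Another annotated transcript, Lcn2-206, begins upstream of the Lcn2 stretch, with coding sequence at chr2:32388017-32388044. Capitals mark matches to a C/EBP motif (TTNNGCAA) or a gamma-activated site (GAS, TTCNNNGAA), each searched on both strands; no marked matches overlap.
Lcn2 promoter: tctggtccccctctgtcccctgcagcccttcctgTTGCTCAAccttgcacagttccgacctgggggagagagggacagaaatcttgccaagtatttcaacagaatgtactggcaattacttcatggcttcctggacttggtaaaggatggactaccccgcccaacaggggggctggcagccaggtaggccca
Ltf promoter: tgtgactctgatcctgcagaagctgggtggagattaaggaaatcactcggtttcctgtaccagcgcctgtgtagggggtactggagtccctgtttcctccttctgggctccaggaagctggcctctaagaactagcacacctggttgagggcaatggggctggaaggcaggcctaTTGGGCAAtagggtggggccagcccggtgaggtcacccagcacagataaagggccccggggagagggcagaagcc
Steap4 promoter: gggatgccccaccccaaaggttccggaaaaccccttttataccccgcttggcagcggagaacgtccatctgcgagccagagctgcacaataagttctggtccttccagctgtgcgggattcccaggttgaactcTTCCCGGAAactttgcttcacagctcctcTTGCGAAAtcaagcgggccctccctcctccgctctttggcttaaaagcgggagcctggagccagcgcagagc
Hamp promoter: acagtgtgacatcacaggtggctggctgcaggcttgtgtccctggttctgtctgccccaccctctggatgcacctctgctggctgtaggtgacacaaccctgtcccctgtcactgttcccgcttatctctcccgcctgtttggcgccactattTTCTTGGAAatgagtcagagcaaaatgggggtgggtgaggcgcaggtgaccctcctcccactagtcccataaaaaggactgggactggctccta

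The Lcn2 match, TTGCTCAA, begins at position -216 from the RefSeq start and reads as the C/EBP motif on the opposite strand. The Ltf match, TTGGGCAA, begins at -75. Steap4 held both kinds, the C/EBP match TTGCGAAA at -87 and the GAS match TTCCCGGAA at -116, and Hamp held the GAS match TTCTTGGAA at -97. C/EBP factors and the STAT factors that bind GAS motifs are known to act in acute-phase transcription. In windows of 300 bases around each start, 10.8% of the 32851 RefSeq promoters in the table held the C/EBP motif and 8.30% the GAS motif. Of the 7 iron genes with a promoter in the table, Lcn2, Ltf, Steap4 and Fth1 held the C/EBP motif and Steap4 and Hamp the GAS motif. These are genes and the percentages are of promoters. Tfrc and Fth1 had 2 windows each, and Fth1 held its matches in 1 of them. The letters searched for the NF-kB motif (1.47% of promoters), the interferon-stimulated response element (3.44%) and the antioxidant response element TGACNNNGC (12.4%) were in none of the 7 windows. A match of letters is not a measured binding site.

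The genes of cellular uptake, release and storage were all well expressed and differed far less between the groups. Several of their messenger RNAs carry iron-responsive elements, shown here because these elements regulate the genes after transcription, which gene counts reflect only in part. The pattern searched, chosen after the values were seen, was a bulged C, an upper stem of 5 pairs (G-T pairs allowed) and the loop CAGTGN with a last base other than G. The sequences are from GENCODE M21 transcripts (GRCm38), 5′ to 3′ with T for U, 28 bases each, with the loop in capitals.
Tfrc 3′ UTR, chr16:32631220-32631247: attatcggaagCAGTGCcttccataatt
Tfrc 3′ UTR, chr16:32631599-32631626: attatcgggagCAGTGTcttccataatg
Tfrc 3′ UTR, chr16:32631664-32631691: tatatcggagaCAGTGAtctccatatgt
Tfrc 3′ UTR, chr16:32631711-32631738: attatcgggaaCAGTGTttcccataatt
Slc11a2 3′ UTR, chr15:100395153-100395180: gccatcagagcCAGTGTgtttctatggt
Slc40a1 5′ UTR, chr1:45925465-45925492: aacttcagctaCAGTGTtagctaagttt
Fth1 5′ UTR, chr19:9982733-9982760: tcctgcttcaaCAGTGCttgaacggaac
Ftl1 5′ UTR, chr7:45459779-45459806: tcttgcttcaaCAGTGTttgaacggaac

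Tfrc held 4 such hairpins in its 3′ untranslated region (UTR), where bound iron regulatory proteins are known to protect the messenger from decay. Slc40a1, Fth1 and Ftl1 held 1 each in the 5′ UTR, where the same proteins are known to block translation. The elements of the ferritin genes differed at 2 of 28 bases, C3T and C17T from Fth1 to Ftl1, counted from the 5′ end. The Slc11a2 element had 4 of the 5 pairs and lay in the long transcript Slc11a2-205, not in Slc11a2-201, and counts per gene do not separate the transcripts. With all 5 pairs the pattern occurred in 222 of 21901 protein-coding genes (1.01%), and with at least 4 in 1763 (8.05%). The search found no match in Ltf, Steap4 or Hamp, and in Lcn2 a match of 4 pairs in the coding sequence of 1 transcript.

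Slc11a2 (ENSMUSG00000023030, chr15:100387898-100423055, minus strand, 17 exons in Slc11a2-201) encodes divalent metal transporter 1, which carries ferrous iron across endosomal and plasma membranes. Its level in untreated libraries 1 to 5 was 67.5, 78.4, 75.5, 69.1 and 65.6 CPM, and in LPS libraries 6 to 10 it was 108, 118, 105, 104 and 98.9 CPM. The libraries of a group were close together and the groups were apart. The means were 71.2 ± 5.46 and 107 ± 6.98 CPM (SD, n = 5 each), and the log2 fold change was 0.58 ± 0.07 (SE), which is 1.50-fold, with 0.54 to 0.62 when single libraries were left out. An exon of Gm5475 on the opposite strand overlaps 402 of its 6354 exonic bases. That gene had 26 and 31 counts over the untreated and the LPS libraries.

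Tfrc (ENSMUSG00000022797, chr16:32608920-32632794, plus strand, 19 exons) encodes transferrin receptor 1, which brings transferrin-bound iron into the cell. Its level in untreated libraries 1 to 5 was 83.4, 69.2, 74.5, 68.9 and 62.3 CPM, and in LPS libraries 6 to 10 it was 87.0, 78.3, 68.2, 78.0 and 61.5 CPM. The highest and the lowest value of all were both LPS libraries. The means were 71.7 ± 7.84 and 74.6 ± 9.91 CPM (SD, n = 5 each), and the log2 fold change was 0.06 ± 0.10 (SE), which became -0.01 without LPS 6.

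Slc40a1 (ENSMUSG00000025993, chr1:45908068-45925582, minus strand, 8 exons) encodes ferroportin, the iron exporter that hepcidin acts on. Untreated libraries 1 to 5 had 60.2, 63.2, 62.6, 62.6 and 51.6 CPM, and LPS libraries 6 to 10 had 46.0, 58.7, 52.6, 57.7 and 52.3 CPM. Untreated 5 lay inside the range of the LPS libraries, and the other 4 untreated libraries lay above them. The means were 60.1 ± 4.88 and 53.4 ± 5.09 CPM (SD, n = 5 each), and the log2 fold change was -0.17 ± 0.08 (SE), from -0.22 without untreated 5 to -0.13 without LPS 6.

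Fth1 (ENSMUSG00000024661, chr19:9982646-9985098, plus strand, 4 exons) encodes the ferritin heavy chain, the subunit with ferroxidase activity. The Fth1 level in untreated libraries 1 to 5 was 394, 410, 433, 431 and 439 CPM, and in LPS libraries 6 to 10 it was 407, 383, 397, 400 and 468 CPM. The untreated values lay inside the range of the LPS values, whose upper end was LPS 10 alone. The means were 421 ± 18.9 and 411 ± 33.1 CPM (SD, n = 5 each), and the log2 fold change was -0.04 ± 0.07 (SE), and -0.09 without LPS 10.

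Ftl1 (ENSMUSG00000050708, chr7:45457944-45459884, minus strand, 4 exons) encodes the ferritin light chain, which promotes the iron core of the ferritin shell. For Ftl1, untreated libraries 1 to 5 had 993, 874, 944, 889 and 1225 CPM, and LPS libraries 6 to 10 had 1260, 1023, 1025, 1039 and 1218 CPM. Untreated 5 lay among the highest LPS libraries, and the other untreated libraries were below all of the LPS ones. The means were 985 ± 142 and 1113 ± 116 CPM (SD, n = 5 each), and the log2 fold change was 0.18 ± 0.10 (SE), and 0.27 without untreated 5. Ferritin genes have many processed copies, to which some of their reads may have gone or among which they may have been dropped. Of the copies, Ftl1-ps1 stood at 2.50 and 3.03 CPM, Ftl1-ps2 at 0.817 and 1.13, Ftl2-ps at 0.396 and 0.541 and Fth-ps2 at 0.922 and 0.648 CPM in untreated and LPS libraries, all small beside Ftl1 and Fth1. Between 4.89% and 6.10% of all reads in the tables were set aside by the counting as aligned to several places.

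Levels were compared between genes per kilobase of the principal transcript (CPM per kb; mean ± SD, n = 5), with the order given as a description. In untreated libraries the order began with Ftl1 (1017 ± 147 CPM per kb), Fth1 (454 ± 20.3) and Lcn2 (55.8 ± 26.2). Slc11a2 (23.6 ± 1.81 CPM per kb), Slc40a1 (17.8 ± 1.45) and Tfrc (14.7 ± 1.60) followed, with Hamp (2.45 ± 1.05), Steap4 (0.475 ± 0.282) and Ltf (0.0821 ± 0.0939) at the low end. The ranges of neighbours overlapped for Lcn2 and Slc11a2, for Slc40a1 and Tfrc, and for Steap4 and Ltf, so that the order inside those pairs is not fixed.

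In LPS libraries Lcn2 reached 867 ± 310 CPM per kb, between Ftl1 (1150 ± 120) and Fth1 (443 ± 35.6), and its range overlapped those of both ferritin chains. Slc11a2 (35.3 ± 2.31 CPM per kb), Slc40a1 (15.9 ± 1.51) and Tfrc (15.3 ± 2.03) followed, and Steap4 (9.99 ± 3.27), Hamp (9.06 ± 2.17) and Ltf (2.09 ± 1.05) had the lowest means. Neighbours also overlapped for Slc40a1 and Tfrc, for Tfrc and Steap4, and for Steap4 and Hamp. With the longer Slc11a2-205 transcript as the length, Slc11a2 stood at 16.1 ± 1.24 and 24.2 ± 1.58 CPM per kb, with its mean below that of Slc40a1 in the untreated libraries. With the longer Fth1-203 transcript, Fth1 stood at 282 ± 12.7 and 275 ± 22.2 CPM per kb. Its highest LPS library was then at 313 CPM per kb, below the lowest Lcn2 value of 423, so that the overlap of Lcn2 with Fth1 depends on the transcript taken.

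**Figure D2:**
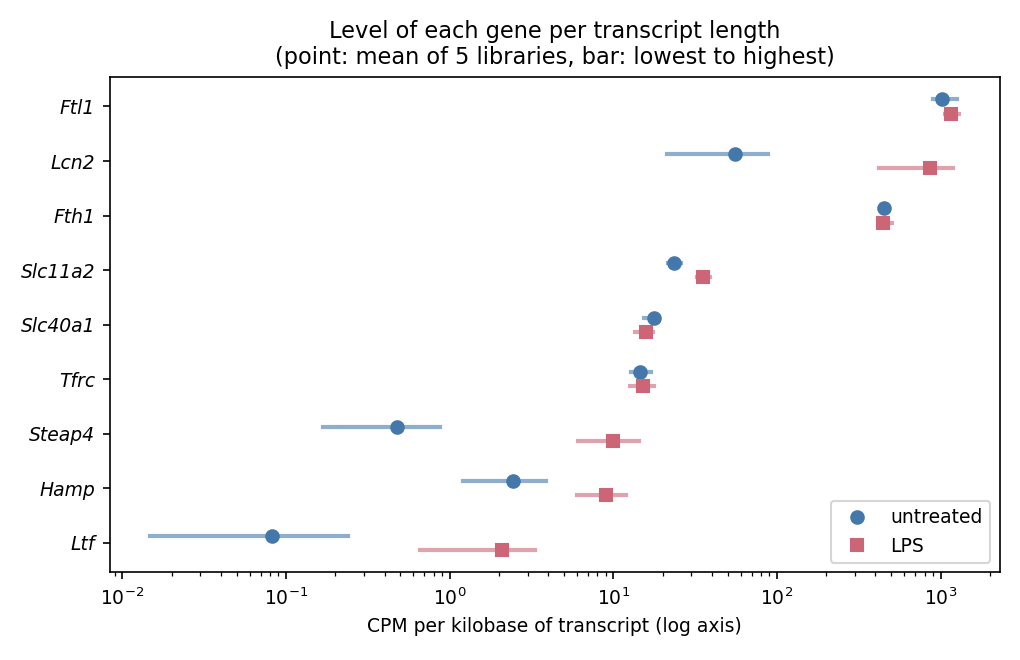
Level of each gene in CPM per kilobase of transcript on a log axis, with points at the mean of 5 libraries and bars from the lowest to the highest library, untreated as circles and LPS as squares. Lcn2 lies at 55.8 in untreated libraries and at 867 in LPS libraries, where its bar overlaps those of Ftl1 and, at the Fth1 length plotted, Fth1.

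Ratios of 2 genes within a library do not depend on the scaling of that library. The ratio of Lcn2 to Ftl1, per kb, was 0.0571, 0.0444, 0.0721, 0.0965 and 0.0167 in untreated libraries 1 to 5 and 0.849, 0.860, 0.400, 0.660 and 0.944 in LPS libraries 6 to 10. In every LPS library, then, the siderophore-binding protein's transcript came within a few-fold of the most abundant ferritin transcript, and in no untreated library did it. The ratio of Ftl1 to Fth1 was 2.42, 2.04, 2.09, 1.98 and 2.68 in untreated and 2.97, 2.57, 2.48, 2.49 and 2.50 in LPS libraries. The uptake to export ratio of Tfrc to Slc40a1 was 0.954, 0.755, 0.820, 0.758 and 0.833 in untreated and 1.30, 0.920, 0.895, 0.932 and 0.810 in LPS libraries. Both of the latter ratios overlapped between the groups.

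The spread inside each group was not used in choosing the genes. It was expressed as each library's deviation from its group mean of log2 CPM (prior count of 2). LPS 8 was the lowest LPS library for Lcn2 (-0.94), Ltf (-1.43) and Steap4 (-0.65). Untreated 5 was the lowest untreated library for Lcn2 (-1.23), Steap4 (-1.16) and Hamp (-0.82), and untreated 4 was the highest for the same 3 genes (0.83, 1.04 and 0.72). LPS 10 was the highest LPS library for Lcn2 (0.55) and Ltf (0.86), and LPS 6 for Steap4 (0.59). Ltf in untreated 1 deviated by 1.59, at 17 counts. For Tfrc, Slc11a2, Slc40a1, Fth1 and Ftl1 no library deviated by more than 0.33.

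**Figure D3:**
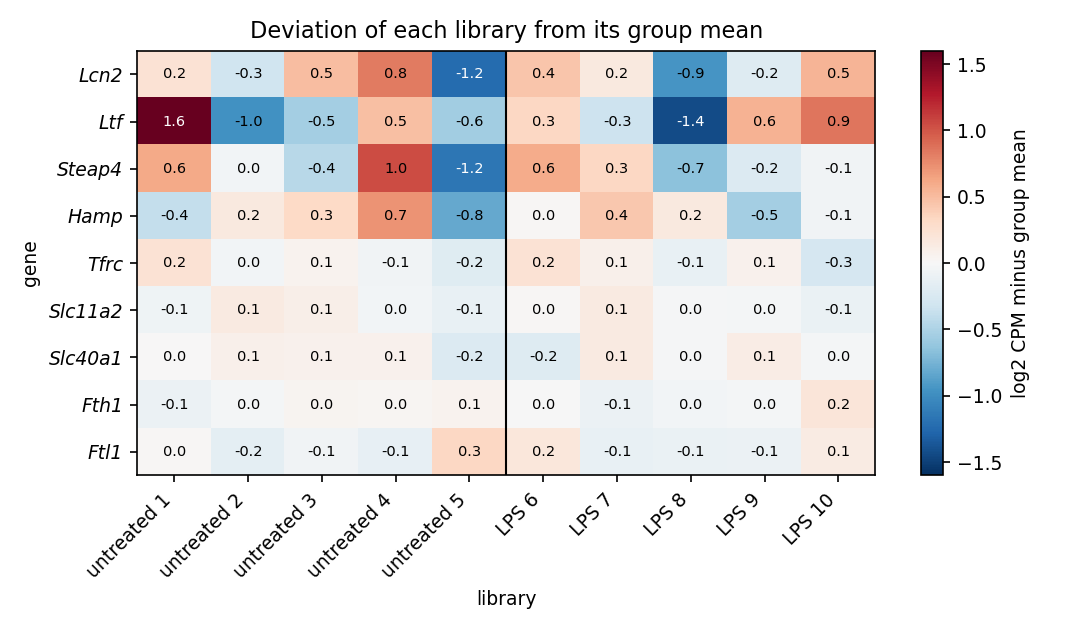
Deviation of each library (columns) from its group mean in log2 CPM, by gene (rows), with red for higher and blue for lower. Lcn2, Ltf, Steap4 and Hamp vary between libraries of a group by up to 1.59, with LPS 8 and untreated 5 lowest for 3 of these genes each, while the other 5 genes vary by at most 0.33.

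Genes with a like spread were ranked by the root mean square difference of these deviations over the 10 libraries, among 11982 genes with a mean of at least 1 CPM. Nearest to Steap4 were Fga (0.21), which encodes a fibrinogen chain, the complement gene C3 (0.23) and Ccnf (0.27), against a median of 0.64 over all genes compared. Nearest to Lcn2 were the adhesion molecule gene Icam1 (0.31), the neuropeptide gene Gal (0.31) and the GTPase gene Gbp5 (0.32), against a median of 0.65. Among the nearest to Ltf were Iqsec3 (0.54) and Tgm3 (0.56), against a median of 0.89. All of the genes named here were called higher in LPS except Ccnf, whose log2 fold change was -0.21. The nearest of so many genes lie below the median by the way they were picked, so these distances are a description only.

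A wider set of 72 iron genes covered uptake, siderophore handling, export, storage, sensing, mitochondrial iron, heme and metal withholding. Of these, 59 were tested, 1 was called higher (1.69%, against 2.84% of all genes) and 0 lower by edgeR's quasi-likelihood test, with 6 at an unadjusted p under 0.05. DESeq2 and limma-voom called 2 higher each, Steap1 and Hmox1. The median log2 fold change of the 59 was 0.02, against -0.01 for all genes. The share called among these genes was thus near that of all genes.

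Of 8 tested genes of uptake and reduction, 1 rose, Steap1, which encodes a relative of the Steap4 reductase. Steap1 levels in untreated libraries 1 to 5 were 13.4, 8.68, 9.42, 11.7 and 10.3 CPM, and in LPS libraries 6 to 10 they were 21.0, 16.7, 13.9, 14.6 and 18.0 CPM. The lowest LPS library was just above the highest untreated one. The log2 fold change was 0.65 ± 0.14 (SE), from 10.7 ± 1.90 to 16.8 ± 2.83 CPM (SD, n = 5 each; edgeR adjusted p = 0.0176). The call was lost without untreated 2 (adjusted p = 0.0520) or untreated 3 (0.0610).

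Genes around hepcidin, lipocalin-2 and iron export were not called. Slc22a17, which encodes a receptor of lipocalin-2, stood at 71.8 ± 15.7 and 64.8 ± 13.6 CPM (SD, n = 5 each; log2 fold change -0.15 ± 0.16 SE, edgeR adjusted p = 0.741). Ceruloplasmin, a ferroxidase that works with ferroportin, is encoded by Cp. The Cp level in untreated libraries 1 to 5 was 1.24, 1.58, 1.31, 6.67 and 0.863 CPM, and in LPS libraries 6 to 10 it was 4.49, 3.26, 2.85, 5.43 and 2.49 CPM. Untreated 4, which was also the highest untreated library for Lcn2, Steap4 and Hamp, was above every LPS library, and the other 4 untreated libraries were below them all. With edgeR the log2 fold change, 0.66 ± 0.48 (SE; adjusted p = 0.580), became 1.56 without untreated 4, where Cp was called (adjusted p = 0.00826). Of 14 tested genes of iron sensing and hepcidin control none was called by edgeR, DESeq2 or limma-voom (edgeR median log2 fold change -0.10, 1 at an unadjusted p under 0.05). The most abundant of them were Neo1, which encodes the hepcidin regulator neogenin, at 159 ± 13.5 and 156 ± 17.7 CPM, and Ireb2, which encodes iron regulatory protein 2, at 133 ± 10.5 and 124 ± 10.7 CPM.

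Genes of iron storage, mitochondrial iron and heme were not called by edgeR either, with 1 in each list at an unadjusted p under 0.05. Pcbp1 and Pcbp2 encode chaperones that deliver iron to ferritin; Pcbp1 had 203 ± 13.7 and 226 ± 15.4 CPM (SD, n = 5 each; edgeR adjusted p = 0.299) and Pcbp2 309 ± 7.22 and 304 ± 21.6 CPM (adjusted p = 0.911). Of 15 tested genes of mitochondrial iron and iron-sulfur clusters (median 0.03), the most abundant were the assembly factor gene Isca1 at 75.3 ± 2.79 and 72.4 ± 5.11 CPM and the mitochondrial iron importer gene Slc25a28 at 68.4 ± 13.1 and 73.8 ± 15.5 CPM. Of 16 tested genes of heme metabolism (median 0.06), they were Abcb10 at 85.4 ± 2.40 and 84.4 ± 2.00 CPM and the heme transporter gene Slc48a1 at 82.4 ± 1.71 and 79.8 ± 1.44 CPM. The heme list also held Hmox1, named after its values were seen, which encodes the heme-degrading enzyme heme oxygenase 1. Its level was 83.3, 56.3, 45.9, 56.4 and 55.8 CPM in untreated and 110, 81.3, 72.4, 69.5 and 83.2 CPM in LPS libraries, so that untreated 1 overlapped the LPS group. Its log2 fold change was 0.49 ± 0.15 (SE; edgeR adjusted p = 0.118), and it was called without untreated 1 (adjusted p = 0.0131) and by DESeq2 (0.0469) and limma-voom (0.0457).

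**Figure D4:**
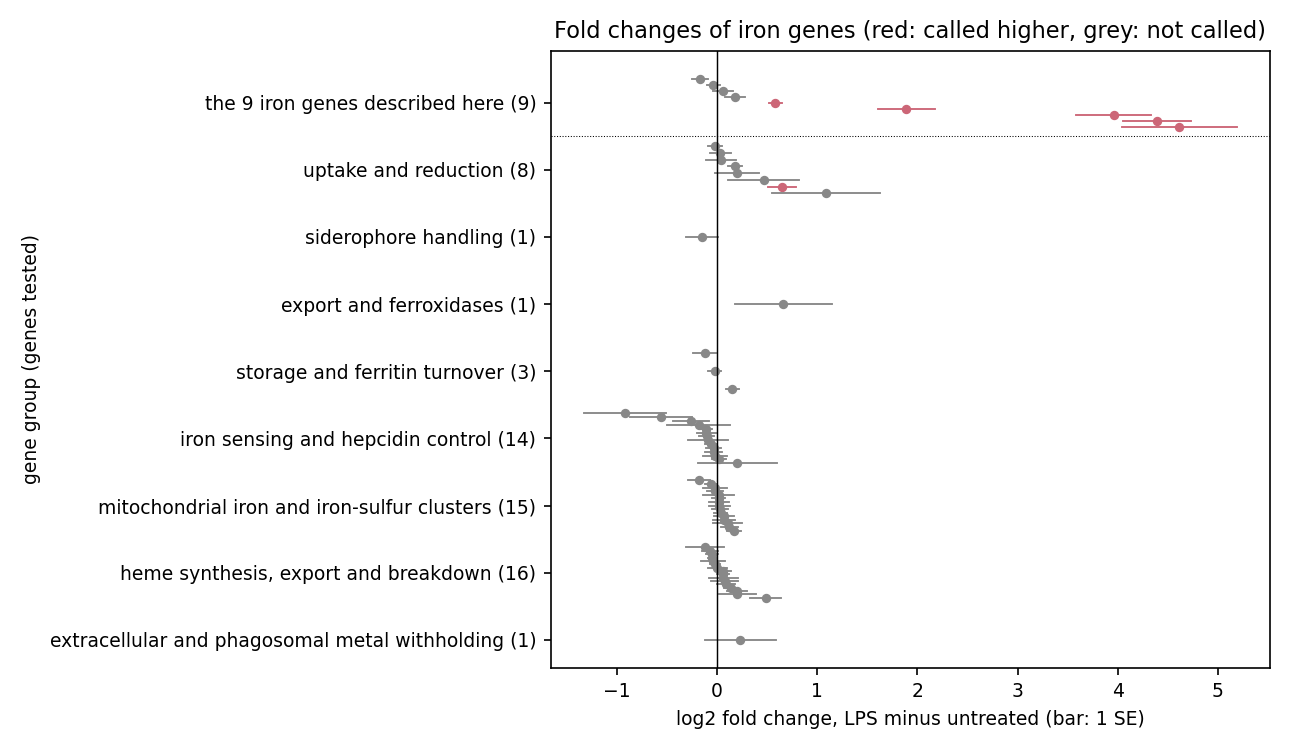
Log2 fold change of LPS minus untreated (points) with 1 SE (bars) for the 9 genes described here and for the tested genes of 8 wider iron lists, with red for genes called higher and grey for genes not called. The 9 genes above the dotted line were chosen with these values in view; among the wider lists Steap1 was the 1 gene called, at 0.65.

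Other metal-withholding genes were mostly near 0 counts. Of 6, Hpx, the gene of the heme-binding protein hemopexin, was tested, at 1.53 ± 0.770 and 1.81 ± 0.698 CPM (SD, n = 5 each; edgeR adjusted p = 0.828). S100a9, named after its values were seen, encodes a subunit of calprotectin, which binds zinc, manganese and iron. It had 1, 0, 2, 0 and 0 counts in untreated libraries 1 to 5 and 13, 18, 6, 4 and 31 counts in LPS libraries 6 to 10. These groups did not overlap, but the gene was below the filter and was called by edgeR in the setting without a filter (adjusted p = 6.88e-04). Its partner gene S100a8 had 0 and 4 counts over the untreated and LPS groups, the phagosomal metal transporter gene Slc11a1 7 and 5, and the haptoglobin gene Hp 1 and 3.

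Neutrophils and macrophages are known to make several of these proteins, and duct cells can make lipocalin-2, so the markers of other cell types were set beside the results. Of 14 neutrophil markers, 8 had 0 counts in all libraries, among them the granule genes Mpo, Elane and Camp and the receptor genes Cxcr2 and Csf3r. The summed neutrophil markers, mostly Mmp9 and S100a9, ranged from 0.205 to 1.25 CPM in untreated and from 0.269 to 1.49 CPM in LPS libraries (two-sided exact permutation p = 0.651; adjusted over 9 marker lists 0.837). The values of these genes went opposite ways, from 0.608 ± 0.426 to 0.162 ± 0.109 CPM for Mmp9, with overlapping groups, and from 0.0247 ± 0.0374 to 0.614 ± 0.424 CPM for S100a9 (SD, n = 5 each; neither passed the filter).

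Macrophage markers, mostly C1qa and Cd68, summed to between 29.2 and 42.2 CPM in untreated and between 36.5 and 47.1 CPM in LPS libraries (exact permutation p = 0.127, adjusted 0.286). The means of C1qa and Cd68 went opposite ways. The pan-leukocyte gene Ptprc had 0 counts in all libraries and the macrophage gene Adgre1 1 and 0 counts over the groups. C1qb had 5 and 1 counts over the untreated and LPS groups and C1qc 2 and 3, both named after their values were seen. C1qa stood at 18.7 ± 3.69 and 14.7 ± 1.85 CPM (SD, n = 5 each; edgeR adjusted p = 0.213). Cd68, a lysosomal gene, rose from 16.8 ± 2.78 to 26.8 ± 4.78 CPM (edgeR adjusted p = 0.0140). Its groups overlapped, with LPS 8 at 19.4 CPM and untreated 2 at 19.9 CPM.

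Ductal markers were more abundant and summed to between 771 and 902 CPM in untreated and between 878 and 1032 CPM in LPS libraries (exact permutation p = 0.0159, adjusted 0.143), with untreated 5 inside the range of the LPS libraries. The most abundant, Krt7 (424 ± 53.1 and 473 ± 53.8 CPM) and Epcam (168 ± 14.2 and 184 ± 17.9 CPM; SD, n = 5 each), were not called, while Spp1 (46.4 ± 10.5 to 91.1 ± 21.5 CPM, edgeR adjusted p = 0.00404) and Muc1 (6.99 ± 1.58 to 12.2 ± 0.977 CPM, adjusted p = 0.00564), both named after their values were seen, rose. Untreated 5 had the highest ductal sum of the untreated libraries and the lowest Lcn2, at 19.4 CPM. Ductal sums were 840, 777, 771, 774 and 902 CPM in untreated libraries 1 to 5. In LPS libraries 6 to 10 they were 1008, 930, 878, 918 and 1032 CPM. The ductal sum and Lcn2 ranked the LPS libraries in the same order, from LPS 8, the lowest, to LPS 10, the highest. In the untreated libraries the orders differed. The part of neutrophil, macrophage and ductal RNA in the differences of Lcn2, Ltf, Steap4 and Hamp was not tested.

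Endothelial markers summed to between 11.9 and 35.4 CPM in untreated and between 9.96 and 14.2 CPM in LPS libraries (exact permutation p = 0.0397, adjusted 0.179). They were led by Esam (10.3 ± 0.971 and 8.52 ± 0.706 CPM) and Kdr, whose mean fell from 3.51 ± 2.47 to 0.392 ± 0.327 CPM (SD, n = 5 each; edgeR adjusted p = 0.0473). Untreated 1 lay inside the range of the LPS libraries for the endothelial sum (11.9 CPM) and for Kdr (0.0777 CPM, from 2 counts). Acinar markers, led by Ctrb1 and Prss2, ranged more widely inside groups than between them, from 234 to 464 and from 133 to 625 CPM (exact permutation p = 0.968, adjusted 1). Sums of alpha markers (Gcg, and Ttr at 128 ± 19.5 and 102 ± 13.3 CPM) and delta markers (Sst, and Rbp4 at 288 ± 26.4 and 254 ± 56.3 CPM) had exact permutation p of 0.206 and 0.587 (adjusted 0.371 and 0.837). The sum of beta cell markers ran from 118300 to 137100 CPM in untreated and from 102000 to 134000 CPM in LPS libraries (exact permutation p = 0.127, adjusted 0.286), a sum made up mostly of insulin transcripts. Among its 10 genes 3 fell, named here after their values were seen: the glucose transporter gene Slc2a2 (372 ± 45.7 to 205 ± 10.2 CPM, edgeR adjusted p = 4.3e-05), the zinc transporter gene Slc30a8 (523 ± 24.6 to 347 ± 17.9 CPM, adjusted p = 7.37e-05) and Ucn3 (431 ± 43.6 to 277 ± 34.0 CPM, adjusted p = 0.00143; SD, n = 5 each). Of 6 erythroid markers, 5 had 0 counts throughout, among them the globin genes and the heme synthesis gene Alas2.

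**Figure D5:**
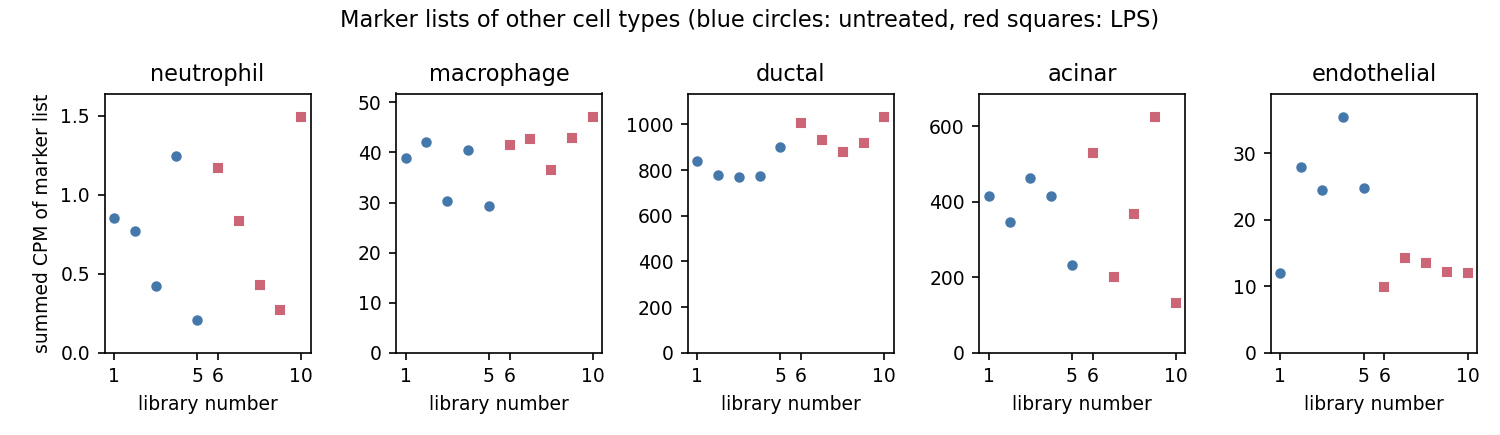
Summed CPM of the marker lists of 5 other cell types (vertical axes from 0, a scale of their own) in libraries 1 to 10, with circles for untreated and squares for LPS libraries. Neutrophil sums stay under 1.5 CPM in both groups, macrophage and acinar sums overlap, and ductal sums run from 771 to 902 in untreated and from 878 to 1032 in LPS libraries.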

How the data were processed

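Raw counts per Ensembl gene identifier, 1 table for each of 10 libraries, were used as deposited. The authors used FastQC, Trimmomatic, STAR, SAMtools, HTSeq and DESeq2 with GRCm39, per the submitters' processing notes. For their versions, the annotation release and the strand setting, a statement was not given in the sources used here, so a gene's counts can include reads of an overlapping or antisense gene. Reads that name no gene (15.4% to 20.2% of all reads) were left out of library sizes. Groups came from the sample titles. Each pair of libraries differed by more than counting noise (chi-square per gene of at least 6.14), so none was treated as a library deposited more than once; this does not show that they are independent.

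Identifiers were matched to symbols for 52073 of 56748, and 24717 had 0 counts in all libraries. In R 4.3.3, genes of at least 10 counts by filterByExpr of edgeR 4.0.16, with 15 or more in total, were kept. After TMM scaling they were tested with the quasi-likelihood F test on all 10 libraries with no covariate, with Benjamini-Hochberg adjustment over 15942 genes and a threshold of 0.05. Standard errors are on the log2 scale. For edgeR they were derived as the absolute log2 fold change divided by the square root of the F statistic. Two-sided exact permutation tests served for marker sums; their smallest possible p is 0.00794. Other settings were DESeq2 size factors or upper-quartile factors in edgeR, library sizes without the 20 most abundant genes, no filter, a filter of 1 CPM in 5 libraries, DESeq2 1.42.0, limma-voom (limma 3.58.1) with sample quality weights, and each library left out.

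The 9 genes and all lists were chosen with earlier results of these data known. Named were the 9 genes, of each wider list its called genes or else its 2 most abundant tested genes, the 2 most abundant of each marker list, the 3 genes of nearest spread, and copies of the members; any others are marked. Some genes that this rule picks are not reported here. Sequences and gene positions are from RefSeq promoters (GRCm38.p6) and GENCODE M21 (GRCm38), not the build of the counts, and no coordinates were converted. Transcript lengths were those of the lowest-numbered principal transcript, with the longest coding transcript as an alternative chosen after seeing the data. Motifs, the hairpin pattern and figures used pandas 2.3.3 and matplotlib 3.10.9 under Python 3.11.15.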

Additional observations from a re-analysis of the deposited data

Results flagged for a closer look

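Each group of 5 libraries was checked for a library far from the others, for each of the 9 genes. Of 18 checks, 2 singled out a library, where chance singles out about 1 in 20. Slc40a1 in untreated 5 stood at 51.6 CPM, below the nearest untreated library at 60.2 CPM, a gap of 0.740 of the range of the group. Fth1 in LPS 10 stood at 468 CPM, above the nearest LPS library at 407 CPM, a gap of 0.715 of the range. Both genes had overlapping groups and were not called with or without these libraries.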

How the results depend on the processing

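In each of the 17 other settings 5 of the 9 genes were called higher and 0 lower, which supports nothing, as the genes were chosen on this contrast. Among the 9 genes and the wider iron genes named, no setting changed the sign of one that was called. The number of wider iron genes called higher was 1, and was 3 without a filter, 2 with DESeq2, 2 with limma-voom and 0 to 2 with single libraries left out (0 without untreated 2 or untreated 3, 2 without untreated 1 or untreated 4). Over all genes, 453 were called higher (693 with limma-voom; 324 to 458 with single libraries left out) and 148 lower (322 with DESeq2, 301 with limma-voom; 75 to 166 with single libraries left out, with 75, 77, 89 and 76 without untreated 2, untreated 3, untreated 4 and LPS 9). The scalings moved the median log2 fold change of all genes (-0.01) to -0.02 at most. Low counts limit Ltf (28 counts over the untreated libraries) and Hamp (121) most, and S100a9, with 3 and 72 counts, lay under the filter. No paired analysis was run, because the groups share no replicate number and the labels name no pairs. The labels do not exclude that an untreated and an LPS library came from the same islet preparation. A pairing or batch of that kind was not tested.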
